A study of Homo sapiens with 18 samples.

Results

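CHL1 melanoma cells treated for 72 hours with the PRMT5 inhibitor GSK3326595 at 500 nM (PRMT5i) were compared with CHL1 cells given the DMSO vehicle for 72 hours (control). The 4 libraries, 2 per group, were picked by their labels from 18 in all. The other libraries were CHL1 treated with the CDK4/6 inhibitor palbociclib at 1 μM for 72 hours or 6 days, and A375 melanoma cells given DMSO for 72 hours or 6 days, palbociclib at 1 μM for 72 hours or 6 days, or GSK3326595 at 500 nM for 72 hours. CHL1 was described by the study as wild type for BRAF and NRAS and A375 as BRAF mutant. Poly-A mRNA was sequenced and reads were counted per gene. The study grew 2 replicates per culture condition, and whether they were independent experiments is not given in the sources used here. The p-values therefore measure the spread between libraries, pooled over the groups of each fit.

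PRMT5 is a methyltransferase that places symmetric dimethyl marks on arginines of histones, Sm proteins and other RNA-binding proteins. It works in a complex with WDR77, and adaptor proteins (CLNS1A, RIOK1 and COPRS) bring it its substrates. Sm proteins form the core of the small nuclear particles of the spliceosome, which is why PRMT5 inhibition is studied for its effects on splicing and on p53 control through MDM4.

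The control libraries held 30013952 and 28823307 counts and the PRMT5i libraries 37424081 and 35536814. Mitochondrially encoded mRNA took 0.987% to 1.10% of control counts and 0.599% to 0.869% of PRMT5i counts. The labelled cell type could be checked with 15 of 18 melanocyte lineage genes. MITF, the lineage transcription factor, was at 61.2 and 66.5 CPM in the control and 112 and 135 CPM in the PRMT5i libraries, and DCT, PAX3 and OCA2 were also present. TYR, PMEL, MC1R and SLC45A2 were under 1 CPM in each of the 4 libraries and KIT was at 0 in all of them. The summed level of those 15 genes was 1049 and 1151 CPM in control and 1236 and 1436 CPM in PRMT5i. Markers of other cell types were low, and their sums were higher in both PRMT5i libraries than in the controls. They summed to 10.5 to 10.8 CPM in control and 19.0 to 22.7 CPM in PRMT5i for 6 keratinocyte genes, 18.6 to 21.6 and 28.9 to 33.5 CPM for 6 fibroblast genes, 7.26 to 7.66 and 13.7 to 15.6 CPM for 4 leukocyte genes, and 3.83 to 4.27 and 4.61 to 5.76 CPM for 4 endothelial genes. The part of these cells or of RNA quality in the results was not tested, and in bulk samples a change in the make-up of the cells and a change in RNA per cell cannot be told apart.

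Both PRMT5i libraries were depleted of GC-rich mRNA and enriched in GC-poor mRNA. Across 12875 genes with a GC value for their longest transcript and an average level of 1 CPM or more across the 8 CHL1 libraries, the log2 fold change of PRMT5i against control fell with GC content (Spearman's rho = -0.838 across genes, which are not independent replicates). In the decile of genes with the lowest GC (median 36.5%) the median log2 fold change was 1.22 and 90.1% of genes were called higher. In the decile with the highest GC (median 63.8%) the median was -1.38 and 90.8% were called lower. The order of the 10 deciles was unbroken, and the sign turned between the deciles with a median GC of 45.8% and 48.7%.

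**Figure D1:**
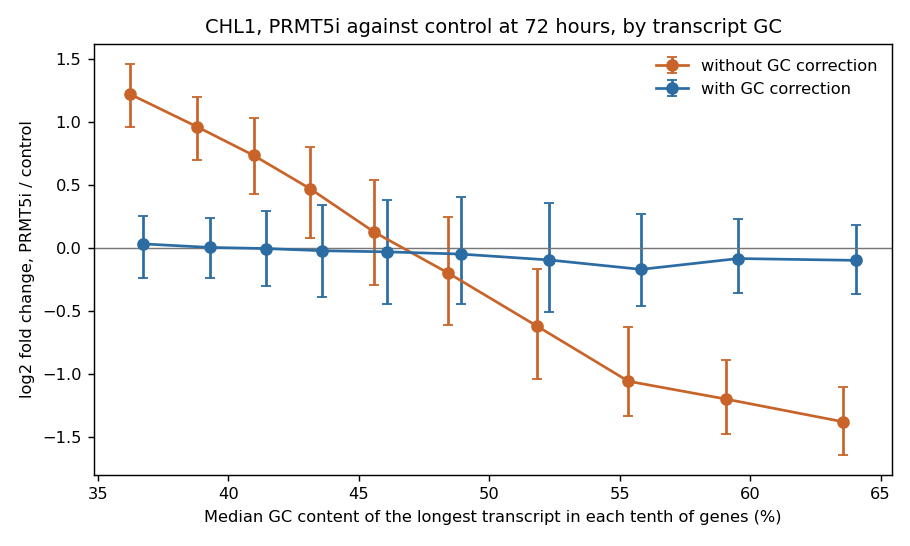
Log2 fold change of PRMT5i against control (y axis) in 10 equal groups of genes ordered by GC content of the longest transcript (x axis, percent), without and with the GC correction. Without it the medians run from 1.22 in the GC-poorest to -1.38 in the GC-richest group, and with it they lie between 0.04 and -0.17.

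The trend was stronger with GC of the transcript than of the promoter. Among 9839 genes with every feature, rho was -0.845 for GC of the transcript, -0.787 for its coding part, -0.793 for the last codon position and -0.181 for the promoter. When genes were divided into 3 classes by transcript GC and again by promoter GC, the medians of the GC-poor class stayed between 0.95 and 0.97 whatever the promoter, and those of the GC-rich class between -1.13 and -1.18. Transcript length gave a rho of 0.263.

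A trend of the same direction was present in vehicle-treated A375 cells. The median log2 level of the GC-richest decile minus that of the GC-poorest, taken against the median library of each cell line, was -2.55 and -2.04 in the PRMT5i libraries and 0.03 and 0.02 in the CHL1 controls. It was -2.27 and -1.12 in A375 cells given DMSO for 6 days, while the other 12 libraries lay between -0.16 and 0.48. Effects of the inhibitor on GC-rich mRNA and a trend carried by these libraries cannot be told apart in CHL1, since both PRMT5i libraries have the trend and neither control has it. Each gene and list is therefore given before and after a correction that removes a smooth GC curve from every library. The correction also removes any true response that follows GC content.

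**Figure D2:**
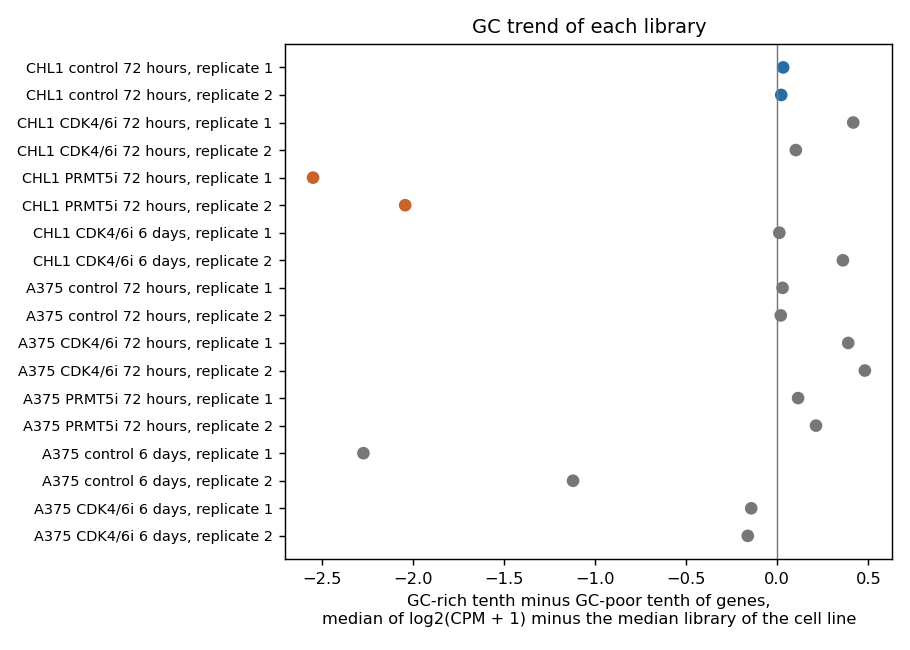
Difference between the GC-richest and GC-poorest decile of genes in median log2 level against the cell line's median library (axis in log2 units), one point for each of the 18 libraries. The 2 CHL1 PRMT5i libraries (-2.55 and -2.04) and the 2 A375 libraries of DMSO for 6 days (-2.27 and -1.12) stand apart from the other 14.

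The coding sequences below are shown because they hold protein constant while GC varies. The 90 bases at the start of the coding part are printed with G and C in capitals, from the GRCh37 genome and GENCODE transcripts. HIST1H4H (chr6:26277837-26285866, minus strand) and HIST1H4J (chr6:27791870-27792258, plus strand) encode the same histone H4 of 103 residues. Their longest transcripts have 43.8% and 61.7% GC and their coding parts 55.0% and 64.4%. Among the bases shown 47 and 55 are G or C.
HIST1H4H: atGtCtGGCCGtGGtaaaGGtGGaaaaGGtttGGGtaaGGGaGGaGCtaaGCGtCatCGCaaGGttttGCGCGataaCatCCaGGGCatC
HIST1H4J: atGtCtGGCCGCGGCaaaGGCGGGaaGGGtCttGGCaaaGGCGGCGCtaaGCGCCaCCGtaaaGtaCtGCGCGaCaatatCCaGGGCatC

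Before correction 11176 of 20705 genes (54%) were differentially expressed at an adjusted p below 0.05 in edgeR's quasi-likelihood test (5461 up-regulated/5715 down-regulated, or 26.4% and 27.6%). After correction 4692 of 12875 genes (36.4%) were DEGs (2118 up-regulated/2574 down-regulated, or 16.5% and 20%). The median size of a log2 fold change, of either sign, fell from 0.87 to 0.33 with the correction. The corrected count depended on the controls, with 2291 DEGs without control library 1 and 2715 without control library 2. With only the 4 libraries fitted it was 3885, of which 60.9% were up-regulated, against 45.1% when all 8 CHL1 libraries were fitted. Of 9250 uncorrected DEGs that had a GC value, 3126 (33.8%) were also DEGs in the same direction after correction, 277 were DEGs in the opposite direction, and 1289 genes were DEGs only after correction. These 3126 concordant DEGs (24.3% of 12875, with 1394 up-regulated, 10.8%, and 1732 down-regulated, 13.5%) had both PRMT5i libraries beyond both controls. That was a condition of the name concordant. For concordant genes named below, the lack of overlap is therefore no separate result. The median log2 fold change of genes with a GC value was -0.03 before and -0.04 after correction, and values of gene lists are to be read against these. Log2 fold changes are given as value ± SE before and after correction.

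The target itself, on chromosome 14 (chr14:23389734-23398617, minus strand, GRCh37 as the positions below), was at 8.74 and 7.32 CPM in the control and 3.98 and 4.28 CPM in the PRMT5i libraries, a lower level in both PRMT5i libraries (-0.96 ± 0.20 before and -0.45 ± 0.16 after correction, adjusted p = 0.0016 and 0.054). PRMT5 was thus a DEG before but not after correction, although with GC averaged over all transcripts of a gene its corrected value was -0.62 with a call. None of its 4 partners was a DEG after correction. WDR77, the obligate partner, was at 38.1 and 38.02 CPM in the control and 31.96 and 27.2 CPM in the PRMT5i libraries (-0.36 ± 0.16 before and -0.27 ± 0.12 after correction, adjusted p = 0.075 and 0.1). CLNS1A and RIOK1, which bind substrates in alternative complexes, were called higher before correction, and their values after it were 0.05 ± 0.12 and 0.04 ± 0.15. COPRS, which directs PRMT5 to histones, went from -0.65 ± 0.18 to 0.24 ± 0.20. The uncorrected calls of RIOK1 and COPRS were lost without single libraries, namely RIOK1 (0.51 without control library 2, 0.42 without PRMT5i library 1) and COPRS (-0.53 without control library 1). The inhibitor acts on the enzyme's activity, and mRNA of the target does not measure that.

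Of 14 genes of the PRMT5 complex and of methyl donor supply, 5 rose and 5 fell before correction (median -0.19). After it 1 rose and 4 fell (median -0.25), against 16.5% and 20% of all genes. The corrected counts were 1 and 1 without control library 1. The 3 concordant calls were AHCY, APIP and MRI1. AHCY, which removes S-adenosylhomocysteine, was at 88.6 and 80.7 CPM in the control and 26.8 and 42.2 CPM in the PRMT5i libraries (-1.30 ± 0.20 before and -0.37 ± 0.11 after correction). APIP of the methionine salvage pathway was at 35.1 and 32.1 CPM in the control and 80.3 and 70.2 CPM in the PRMT5i libraries (1.16 ± 0.18 before and 0.50 ± 0.12 after correction). MRI1, of the same pathway, was at 12.4 and 12.4 CPM in the control and 4.01 and 6.53 CPM in the PRMT5i libraries (-1.24 ± 0.23 before and -0.59 ± 0.17 after correction). The PRMT5i libraries of all 3 lay beyond the controls, but the corrected calls were lost for AHCY (corrected -0.32 without control library 1, -0.42 without control library 2, -0.32 without PRMT5i library 1), APIP (corrected 0.44 without control library 2, 0.38 without PRMT5i library 1) and MRI1 (corrected -0.60 without control library 1, -0.57 without control library 2, -0.44 without PRMT5i library 1). With GC averaged over transcripts the corrected value of MRI1 turned to 0.053. Of 9 other arginine methyltransferase and demethylase genes 2 rose and 4 fell before correction. Among 8 other arginine methyltransferases and demethylase genes with a GC value, 2 fell after correction and 1 with either control library left out. PRMT1, the main enzyme of asymmetric arginine methylation, was at 119 and 111 CPM in the control and 25.6 and 44.7 CPM in the PRMT5i libraries (-1.71 ± 0.24 before and -0.76 ± 0.16 after correction, adjusted p = 0.00019 and 0.0066), and its call held without each library in turn.

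A set of 10 cell cycle, p53 and splicing genes, taken from those the study mentions by name, gave 4 higher and 5 lower calls before correction and none after it by edgeR, with corrected medians near 0 (-0.05). The study mentions them in its own results on these samples, so their counts are not independent evidence. At an unadjusted p below 0.05 the corrected count was 2 of 10, and DESeq2 and limma voom each called 9 without correction. With GC averaged over transcripts E2F2 (-0.71), CDC45 (-0.30), CDC27 (0.41) and E4F1 (0.33) had corrected calls. E2F2, an activator of S phase genes, was at 57.9 and 51.1 CPM in the control and 19.4 and 26.6 CPM in the PRMT5i libraries (-1.24 ± 0.22 before and -0.22 ± 0.18 after correction, adjusted p = 0.00063 and 0.36). CDC27, a subunit of the anaphase-promoting complex, was at 233 and 219 CPM in the control and 579.8 and 552 CPM in the PRMT5i libraries (1.32 ± 0.18 before and 0.17 ± 0.11 after correction, adjusted p = 0.00015 and 0.24). E4F1, a p53-binding regulator, was at 33.9 and 31.2 CPM in the control and 11.5 and 20.6 CPM in the PRMT5i libraries (-1.02 ± 0.23 before and 0.28 ± 0.11 after correction, adjusted p = 0.003 and 0.063). For each of these 3 genes the PRMT5i libraries lay beyond both controls before correction. MDM4 (chr1:204485507-204527248), the p53 antagonist whose splicing depends on PRMT5, was at 93.6 and 95.1 CPM in the control and 149 and 116 CPM in the PRMT5i libraries (0.49 ± 0.16 before and -0.12 ± 0.12 after correction, adjusted p = 0.021 and 0.44), and MDM2, the p53 ubiquitin ligase, at 119.6 and 107 CPM in the control and 202 and 161 CPM in the PRMT5i libraries (0.68 ± 0.17 before and -0.23 ± 0.13 after correction, adjusted p = 0.0046 and 0.19). CDC45, EGF, CDK16 and E2F3 had corrected values of -0.11, 0.55, -0.13 and 0.18, and E2F3 was not a DEG in either fit. U2AF2, which recognises the 3' splice site, went from -1.19 ± 0.21 to 0.01 ± 0.12. For E4F1, MDM2, MDM4 and U2AF2 the corrected value had the opposite sign, without a call. The uncorrected calls of the MDM genes were lost for MDM2 (uncorrected 0.60 without control library 2) and MDM4 (uncorrected 0.48 without control library 1, 0.50 without control library 2, 0.29 without PRMT5i library 1). Gene counts do not separate isoforms, so MDM4 splicing was not measured here.

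Replication-dependent histone genes had the lowest median log2 fold change of the lists examined, before and after correction. These genes are transcribed in S phase and their mRNA normally ends in a stem-loop without a poly-A tail, so poly-A libraries hold only part of it. Of 69 HIST genes 59 fell and none rose before correction, and 53 of 55 with a GC value fell after it, against 27.6% and 20% of all genes (medians -2.01 and -1.10). No histone gene was higher at an unadjusted p below 0.05 in either fit of edgeR, nor by DESeq2 or limma voom without correction. The summed histone level was 4469 and 3618 CPM in control and 857 and 1260 CPM in PRMT5i, with no overlap. Without single libraries 44 to 50 of the 55 fell.

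Lower calls came from all 5 histone classes. The summed level of H1, the linker histones, was 646 and 549.9 CPM in control and 121 and 189 CPM in PRMT5i. For the core histones it was 803 and 675 against 157 and 241 CPM (H2A), 1316 and 1057 against 271 and 389.9 CPM (H2B), 939.99 and 778 against 156 and 245 CPM (H3), and 763 and 558 against 152 and 195 CPM (H4). In no class did the groups overlap. Corrected calls were lower for 4 of 4 H1, 14 of 14 H2A, 13 of 14 H2B, 11 of 12 H3 and 11 of 11 H4 genes. HIST3H2BB, an H2B gene, was at 19.9 and 18.3 CPM in the control and 2.35 and 4.41 CPM in the PRMT5i libraries (-2.50 ± 0.27 before and -2.84 ± 0.27 after correction, adjusted p = 8.3e-05 and 0.00025). HIST1H2BB was at 11.6 and 8.50 CPM in the control and 1.00 and 1.62 CPM in the PRMT5i libraries (-2.94 ± 0.36 before and -2.51 ± 0.35 after correction, adjusted p = 0.00011 and 0.00092). Reads of near-identical histone copies can be shared between genes or dropped, so single members are less certain than the sums.

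The 11 H4 genes that encode one protein spanned 43.8% to 62.0% GC in the longest transcript and 55.0% to 64.4% in the coding part. HIST4H4 and HIST1H4A each had 61.2% in the coding part but 44.7% and 58.5% in the transcript. Their corrected values were -1.99 and -0.91. All 11 genes fell in both fits. The uncorrected log2 fold changes of the 11 lay between -1.63 and -2.43 (median -2.02), and the corrected ones between -0.79 and -2.26 (median -1.48). HIST1H4H, the GC-poorest, was at 148 and 108 CPM in the control and 32.6 and 38.2 CPM in the PRMT5i libraries (-1.85 ± 0.19 before and -2.26 ± 0.17 after correction). HIST1H4J was at 187 and 144 CPM in the control and 31.5 and 50.1 CPM in the PRMT5i libraries (-2.02 ± 0.24 before and -0.79 ± 0.15 after correction). The decile of genes around the GC content of HIST1H4H had a median of 0.47 before correction and that around HIST1H4J a median of -1.38.

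**Figure D3:**
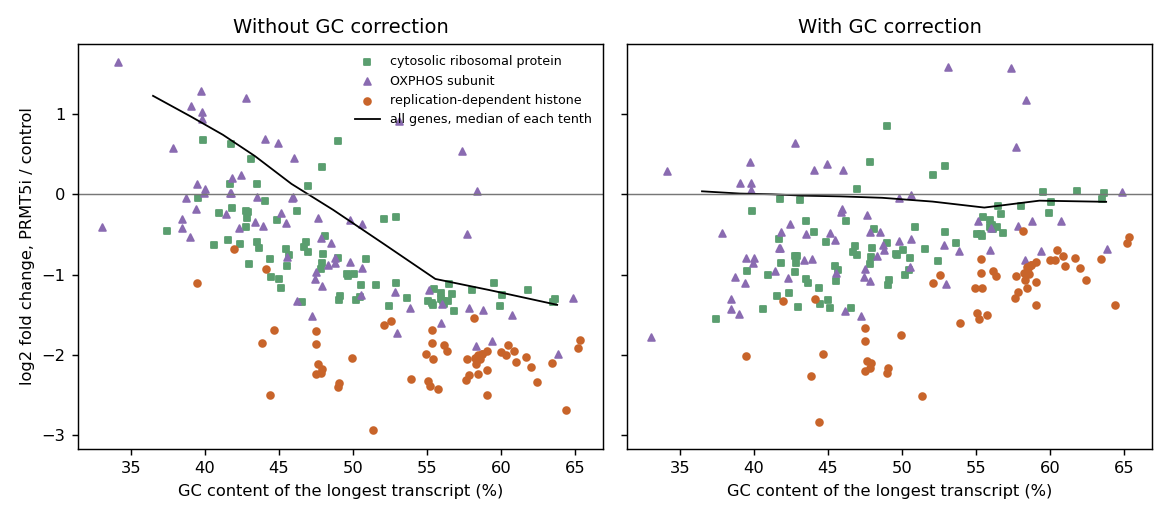
Log2 fold change of PRMT5i against control (y axis) against transcript GC content (x axis, percent), without correction (left) and with it (right). Points are cytosolic ribosomal protein, OXPHOS and histone genes with a GC value. The black line joins the medians of the GC deciles of all genes with a GC value. The histone genes drawn have an uncorrected median of -2.03, the lowest of the lists examined.

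Most cytosolic ribosomal protein genes fell. Of 78 cytosolic ribosomal protein genes 55 fell and 3 rose before correction, and of 75 with a GC value 50 fell and 1 rose after it (medians -0.88 and -0.65). Over all genes 27.6% fell and 26.4% rose before correction, and 20% fell and 16.5% rose after it. RPS20 was at 302 and 260.0 CPM in the control and 193 and 169.6 CPM in the PRMT5i libraries (-0.63 ± 0.16 before and -1.43 ± 0.13 after correction, adjusted p = 0.0047 and 0.00022). RPL5, which also binds MDM2, was at 502 and 432 CPM in the control and 369 and 312 CPM in the PRMT5i libraries (-0.46 ± 0.16 before and -1.55 ± 0.17 after correction, adjusted p = 0.029 and 0.00036). RPS27 was at 46.01 and 33.03 CPM in the control and 19.98 and 15.1 CPM in the PRMT5i libraries (-1.17 ± 0.22 before and -1.42 ± 0.20 after correction). The 3 genes were lower in both PRMT5i libraries. Without control library 1 the corrected count was 25 of 75, and the uncorrected calls were lost for RPS20 (uncorrected -0.52 without control library 1) and RPL5 (uncorrected -0.34 without control library 1, -0.56 without control library 2, -0.34 without PRMT5i library 2). Many ribosomal protein genes have processed pseudogenes that can take their reads.

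Among 30 translation initiation factors 4 rose and 8 fell after correction (13 and 11 before), shares near the 16.5% and 20% of all genes. EIF3I and EIF3K, subunits of the EIF3 complex, were at 153 and 142 CPM in the control and 55.4 and 59.5 CPM in the PRMT5i libraries (-1.36 ± 0.15 before and -1.12 ± 0.11 after correction) and at 66.2 and 63.7 CPM in the control and 18.7 and 21.9 CPM in the PRMT5i libraries (-1.68 ± 0.16 before and -1.08 ± 0.10 after correction), respectively. EIF4G2, a scaffold for cap-independent initiation, was at 382 and 339.7 CPM in the control and 267 and 200.4 CPM in the PRMT5i libraries (-0.63 ± 0.17 before and -1.44 ± 0.14 after correction, adjusted p = 0.0081 and 0.00025). All 3 were lower in both PRMT5i libraries, although the uncorrected call was lost for EIF4G2 (uncorrected -0.54 without control library 1). The list had 1 higher and 5 lower calls without control library 1. Of 19 MYC and nucleolar genes 1 rose and 8 fell after correction, and 2 fell without control library 1. Before correction 4 of these 19 genes rose and 9 fell. NOP56, a core protein of box C/D snoRNA particles, was at 129.9 and 108 CPM in the control and 42.1 and 41.9 CPM in the PRMT5i libraries (-1.50 ± 0.16 before and -1.11 ± 0.13 after correction, adjusted p = 8.3e-05 and 0.00042).

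Nuclear-encoded subunits of oxidative phosphorylation (OXPHOS) mostly fell after correction. Of 73 genes 31 fell and 10 rose before correction, and of 66 with a GC value 43 fell and 5 rose after it, against 20% and 16.5% of all genes (medians -0.40 and -0.57). UQCRQ of complex III was at 36.2 and 28.2 CPM in the control and 11.4 and 11.2 CPM in the PRMT5i libraries (-1.51 ± 0.18 before and -1.51 ± 0.15 after correction, adjusted p = 0.00011 and 0.00025). COX7C of complex IV was at 110.2 and 101 CPM in the control and 78.9 and 66.9 CPM in the PRMT5i libraries (-0.54 ± 0.15 before and -1.50 ± 0.14 after correction, adjusted p = 0.01 and 0.00025). NDUFS4 of complex I went the other way, at 67.2 and 69.5 CPM in the control and 155 and 158 CPM in the PRMT5i libraries (1.20 ± 0.15 before and 0.64 ± 0.10 after correction, adjusted p = 0.00012 and 0.0014). Groups did not overlap in any of the 3. Without control library 1 the count of lower subunits was 28 of 66, and the uncorrected call was lost for COX7C (uncorrected -0.47 without control library 1).

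Mitochondrial ribosomal proteins gave both directions, with 8 of 60 higher and 23 lower after correction (19 and 24 of 63 before, and 4 and 8 without control library 1, with 12 lower when only the 4 libraries were fitted). Over all genes 16.5% were higher and 20% lower after correction. The higher calls of this list lay below that share and the lower calls above it. MRPL17 was at 24.4 and 22.3 CPM in the control and 9.85 and 11.99 CPM in the PRMT5i libraries (-1.10 ± 0.18 before and -1.19 ± 0.15 after correction). MRPS28 was at 31.4 and 29.9 CPM in the control and 66.3 and 74.7 CPM in the PRMT5i libraries (1.20 ± 0.16 before and 0.67 ± 0.12 after correction). The 13 mRNAs of the mitochondrial genome had 4 lower calls after correction and 2 before, and between 0 and 8 when single libraries were left out.

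Glycolysis enzymes fell together, with 14 of 17 lower before and 13 of 17 after correction and 1 and none higher, against 27.6% and 20% lower among all genes (medians -1.21 and -0.50). PGK1, which yields ATP in the pathway, was at 476 and 424 CPM in the control and 346 and 319 CPM in the PRMT5i libraries (-0.44 ± 0.15 before and -0.99 ± 0.12 after correction, adjusted p = 0.029 and 0.00045). ENO1, enolase, was at 1328 and 1146 CPM in the control and 377 and 499 CPM in the PRMT5i libraries (-1.50 ± 0.19 before and -0.90 ± 0.15 after correction, adjusted p = 0.00012 and 0.0019). Both were lower in both PRMT5i libraries. Without control library 1 the corrected glycolysis count was 6 of 17 and with only the 4 libraries fitted it was 8, and the uncorrected call was lost for PGK1 (uncorrected -0.35 without control library 1, -0.52 without control library 2, -0.38 without PRMT5i library 2). Of 25 genes of cholesterol and fatty acid synthesis 16 fell and 5 rose before correction and 6 fell and 3 rose after it, shares near the 20% and 16.5% of all genes. One of the 25 was SCD, the stearoyl-CoA desaturase, at 387 and 384 CPM in the control and 235 and 212 CPM in the PRMT5i libraries (-0.79 ± 0.15 before and -0.87 ± 0.10 after correction). With control library 1 left out 3 of the 25 fell.

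Splicing factor lists gave mixed directions, and their corrected counts are to be read against 20% of all genes lower and 16.5% higher. Of 24 proteins of the U1, U2 and U5 particles 17 fell and 2 rose before correction, and 8 fell and 2 rose after it (medians -0.68 and -0.25). None was a concordant rise. The corrected lower calls were 2 without control library 1 and also 2 when only the 4 libraries were fitted. The Sm and LSm proteins, substrates and partners of the PRMT5 complex, had 7 higher and 7 lower of 17 before correction and 1 higher and 5 lower of 16 after it. SNRPB, a methylated Sm protein, was at 94.4 and 78.2 CPM in the control and 38.1 and 56.6 CPM in the PRMT5i libraries (-0.87 ± 0.20 before and -0.90 ± 0.18 after correction, adjusted p = 0.0026 and 0.0051). SNRPD3, another methylated Sm protein, was at 111 and 98.8 CPM in the control and 83.99 and 76.6 CPM in the PRMT5i libraries (-0.39 ± 0.15 before and -0.68 ± 0.11 after correction, adjusted p = 0.046 and 0.0016). LSM1, part of the cytoplasmic decapping ring, was at 11.4 and 10.5 CPM in the control and 16.5 and 18.1 CPM in the PRMT5i libraries (0.66 ± 0.20 before and 1.08 ± 0.16 after correction, adjusted p = 0.014 and 0.0013). These 3 were outside the control range in both PRMT5i libraries. The list had 2 lower calls without control library 1, and uncorrected calls were lost for SNRPD3 (uncorrected -0.30 without control library 1, -0.47 without control library 2, -0.32 without PRMT5i library 2) and LSM1 (uncorrected 0.72 without control library 1, 0.60 without control library 2).

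The SMN complex loads Sm proteins onto small nuclear RNA. Of its 9 genes 5 rose and 2 fell before correction and 3 rose and 2 fell after it (2 and 1 without control library 1). GEMIN6 was at 13.9 and 11.9 CPM in the control and 8.72 and 7.38 CPM in the PRMT5i libraries (-0.68 ± 0.19 before and -0.81 ± 0.15 after correction, adjusted p = 0.0096 and 0.0036), and its uncorrected call was lost without control library 1 (-0.56). SMN1 and SMN2, near-identical copies whose counts the counting could split, were at 9.25 and 8.77 CPM in the control and 29.01 and 20.4 CPM in the PRMT5i libraries (1.45 ± 0.20 before and 0.79 ± 0.16 after correction) and at 4.63 and 4.89 CPM in the control and 15.3 and 13.1 CPM in the PRMT5i libraries (1.58 ± 0.21 before and 0.91 ± 0.16 after correction), respectively.

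SR proteins, which promote exon inclusion, and their kinases gave 11 higher and 3 lower of 19 before correction and 5 higher and 7 lower after it, and 1 and 4 without control library 1. SRSF1 (chr17:56078280-56084707) was at 99.1 and 84.5 CPM in the control and 46.6 and 48.3 CPM in the PRMT5i libraries (-0.95 ± 0.16 before and -1.93 ± 0.13 after correction, adjusted p = 0.00039 and 0.00014), lower in both PRMT5i libraries. Its transcript has 38.7% GC, in a decile of genes of which 84.8% were called higher before correction. SRSF1 was not typical of the concordant calls of this list, of which 5 were rises and 2 were falls. SRSF11 (1.81 ± 0.24 before and 0.64 ± 0.16 after correction), TRA2A (1.35 ± 0.20 and 0.61 ± 0.17) and CLK1 (1.61 ± 0.16 and 0.37 ± 0.13) were among the rises. The hnRNP proteins, which often repress exons, gave 14 higher and 4 lower of 24 before correction and 5 higher and 6 lower after it, and 3 and 3 without control library 1. HNRNPH3 (chr10:70090931-70102950) was at 29.3 and 27.8 CPM in the control and 115 and 137 CPM in the PRMT5i libraries (2.14 ± 0.18 before and 1.65 ± 0.15 after correction, adjusted p = 8.2e-05 and 0.00022). HNRNPL was at 153 and 136 CPM in the control and 63.9 and 68.9 CPM in the PRMT5i libraries (-1.12 ± 0.16 before and -0.85 ± 0.11 after correction, adjusted p = 0.00018 and 0.00075).

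**Figure D4:**
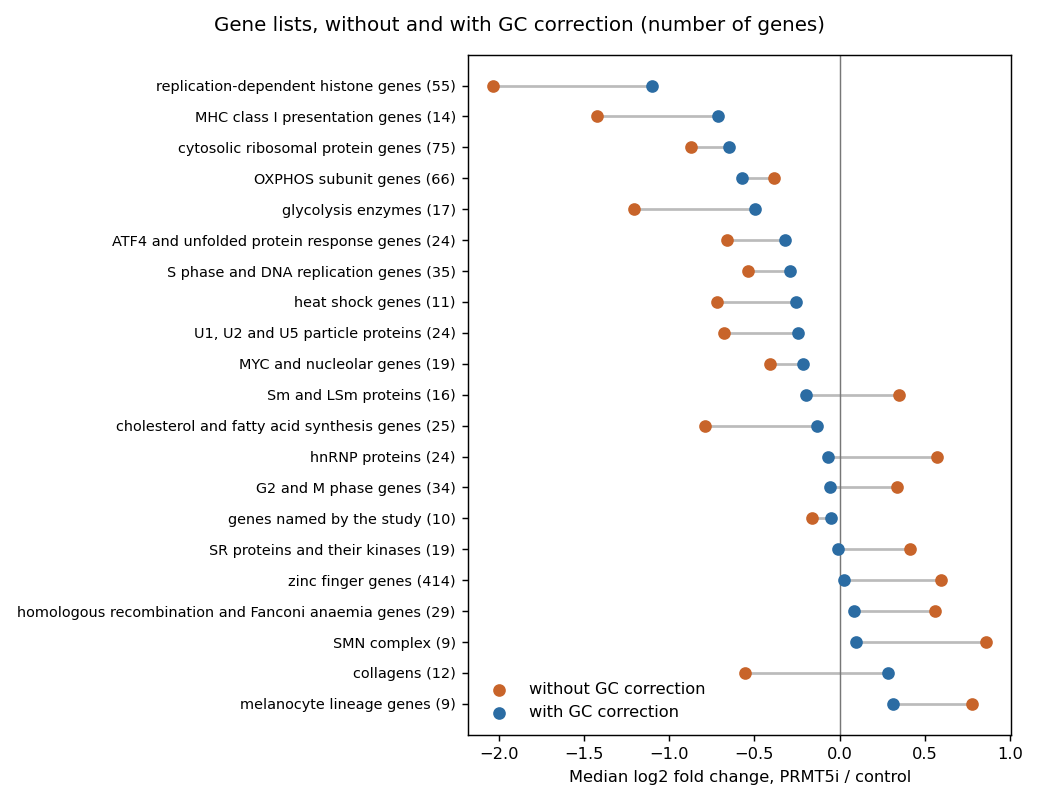
Median log2 fold change of PRMT5i against control (x axis) for selected gene lists, before and after the GC correction. Both medians are over the members with a GC value, whose number is given beside each list. Histone genes have the lowest medians of both fits (-2.03 and -1.10). The SR and hnRNP lists move from positive medians to near 0 with the correction.

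Cell cycle genes gave calls in both directions. Of 35 S phase and DNA replication genes 19 fell and 4 rose before correction, and 14 fell and 1 rose after it, against 20% and 16.5% of all genes (medians -0.54 and -0.29). MCM4 of the replicative helicase was at 212 and 186 CPM in the control and 87.1 and 83.7 CPM in the PRMT5i libraries (-1.22 ± 0.16 before and -1.25 ± 0.12 after correction, adjusted p = 0.00015 and 0.00025). GINS2, another helicase component, was at 29.1 and 25.1 CPM in the control and 12.8 and 12.9 CPM in the PRMT5i libraries (-1.07 ± 0.18 before and -0.93 ± 0.14 after correction, adjusted p = 0.00044 and 0.0012). CDC6, which licenses origins, was at 151 and 133 CPM in the control and 107 and 88.4 CPM in the PRMT5i libraries (-0.54 ± 0.18 before and -0.83 ± 0.14 after correction, adjusted p = 0.021 and 0.002). All 3 were lower in both PRMT5i libraries, without control library 1 or with only the 4 libraries fitted the count of lower calls was 8 of 35, and the uncorrected call was lost for CDC6 (uncorrected -0.45 without control library 1, -0.41 without PRMT5i library 2).

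G2 and M phase genes had 16 higher and 9 lower of 34 before correction and 5 higher and 5 lower after it (medians 0.34 and -0.06). The corrected shares lay below the 16.5% and 20% of all genes. TTK, a spindle checkpoint kinase, was at 91.2 and 77.5 CPM in the control and 336 and 279 CPM in the PRMT5i libraries (1.87 ± 0.17 before and 1.08 ± 0.12 after correction, adjusted p = 8.2e-05 and 0.00035). NUF2 of the kinetochore was at 49.4 and 45.7 CPM in the control and 170.0 and 179 CPM in the PRMT5i libraries (1.88 ± 0.17 before and 0.91 ± 0.10 after correction, adjusted p = 8.2e-05 and 0.0003). KIF20A, a kinesin of cytokinesis, was at 70.2 and 59.3 CPM in the control and 30.3 and 27.1 CPM in the PRMT5i libraries (-1.17 ± 0.17 before and -1.07 ± 0.13 after correction, adjusted p = 0.00021 and 0.0005). TTK and NUF2 were higher and KIF20A lower in each PRMT5i library. MKI67, the proliferation marker, was at 379.6 and 327 CPM in the control and 279 and 209 CPM in the PRMT5i libraries (-0.53 ± 0.17 before and -0.42 ± 0.15 after correction), and its calls were lost in several fits (uncorrected -0.42 without control library 1, -0.34 without PRMT5i library 2 and corrected -0.31 without control library 1, -0.52 without control library 2, -0.24 without PRMT5i library 2). Without PRMT5i library 1 the list had 2 higher and 8 lower calls and without PRMT5i library 2 it had 7 and 2.

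Homologous recombination and Fanconi anaemia genes gave 16 higher and 7 lower of 29 before correction and 6 and 3 after it, near or below the 16.5% and 20% of all genes, and 2 and none with either control library left out. FANCB, of the Fanconi core complex, was at 33.03 and 29.3 CPM in the control and 110.0 and 111 CPM in the PRMT5i libraries (1.83 ± 0.15 before and 0.65 ± 0.14 after correction). BRCA2, a mediator of homologous recombination, was at 51.8 and 44.7 CPM in the control and 156 and 145 CPM in the PRMT5i libraries (1.64 ± 0.15 before and 0.45 ± 0.14 after correction). Each was higher in both PRMT5i libraries, and the corrected calls were lost for FANCB (corrected 0.58 without control library 2, 0.54 without PRMT5i library 1) and BRCA2 (corrected 0.55 without control library 1, 0.37 without control library 2, 0.27 without PRMT5i library 1). CDK4, a target of palbociclib and the kinase partner of D cyclins, was at 75.02 and 59.4 CPM in the control and 20.3 and 28.4 CPM in the PRMT5i libraries (-1.47 ± 0.20 before and -0.96 ± 0.15 after correction, adjusted p = 0.00017 and 0.0017). CDKN1B, which encodes the CDK inhibitor p27, was at 70.6 and 63.7 CPM in the control and 143 and 151 CPM in the PRMT5i libraries (1.13 ± 0.17 before and 0.57 ± 0.13 after correction), with the call lost in one fit (corrected 0.49 without control library 2) and with GC averaged over transcripts.

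The p53 targets gave calls in both directions. Of 25 genes 6 were higher and 10 lower before correction (median -0.12). Of 22 with a GC value 3 were higher and 5 lower after it, against 16.5% and 20% of all genes. The median of these 22 was -0.45 before and -0.07 after correction. BTG2 (chr1:203274619-203278730), an antiproliferative target, was at 9.48 and 10.4 CPM in the control and 3.20 and 2.93 CPM in the PRMT5i libraries (-1.70 ± 0.19 before and -1.35 ± 0.16 after correction, adjusted p = 8.8e-05 and 0.00044). FDXR, a mitochondrial reductase, was at 9.13 and 9.33 CPM in the control and 2.13 and 3.20 CPM in the PRMT5i libraries (-1.79 ± 0.22 before and -0.55 ± 0.16 after correction). PERP, an apoptosis effector, was at 135 and 131 CPM in the control and 372 and 555 CPM in the PRMT5i libraries (1.80 ± 0.23 before and 0.99 ± 0.20 after correction, adjusted p = 0.00013 and 0.005). Only PERP of these 3 was higher in the PRMT5i libraries. The corrected call was lost for FDXR (corrected -0.59 without control library 1, -0.52 without control library 2, -0.51 without PRMT5i library 2), and also when only the 4 libraries were fitted. The corrected calls were 2 higher and 2 lower without control library 1.

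Stress genes gave more lower than higher calls after correction. Of 24 ATF4 and unfolded protein response genes 12 fell and 2 rose before correction and 8 fell and 1 rose after it, against 20% and 16.5% of all genes (medians -0.66 and -0.32). HSPA5, the main chaperone of the endoplasmic reticulum, was at 703 and 713 CPM in the control and 434 and 289 CPM in the PRMT5i libraries (-0.97 ± 0.19 before and -1.40 ± 0.16 after correction, adjusted p = 0.0011 and 0.0004). PDIA4, a disulfide isomerase, was at 673 and 754 CPM in the control and 183 and 269.5 CPM in the PRMT5i libraries (-1.65 ± 0.20 before and -1.02 ± 0.15 after correction, adjusted p = 0.00011 and 0.0013). DNAJB9 was the only concordant rise of that list (1.79 ± 0.24 before and 0.68 ± 0.17 after correction). Of 12 heat shock genes 8 fell and 1 rose before correction, and 5 of 11 fell after it. HSPA8, the constitutive cytosolic chaperone, was at 1522 and 1505 CPM in the control and 1052 and 831 CPM in the PRMT5i libraries (-0.68 ± 0.17 before and -0.86 ± 0.14 after correction, adjusted p = 0.0046 and 0.0019). Of 16 NRF2 and oxidative stress genes 6 were lower and 4 higher before correction (median -0.05). Of 13 with a GC value 4 were lower and 1 higher after it. The median of these 13 was -0.65 before and 0.10 after correction. NQO1, an NRF2 target, was at 146 and 150.4 CPM in the control and 96.97 and 77.5 CPM in the PRMT5i libraries (-0.77 ± 0.19 before and -1.14 ± 0.15 after correction, adjusted p = 0.0048 and 0.00072). GCLC was the only concordant rise of the NRF2 list (0.85 ± 0.17 before and 0.49 ± 0.12 after correction). Without control library 1 the lower calls were 5 in the first list, 2 among the heat shock genes and 2 in the NRF2 list.

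Antigen presentation genes mostly fell, with 12 of 14 lower and none higher before correction and 10 of 14 lower and none higher after it (medians -1.42 and -0.72, and 7 lower without control library 1). PSMB9 (chr6:32811913-32827628), an immunoproteasome subunit, was at 1.66 and 1.84 CPM in the control and 0.439 and 0.404 CPM in the PRMT5i libraries (-2.04 ± 0.39 before and -2.08 ± 0.38 after correction, adjusted p = 0.00098 and 0.0031). PSMB8, another, was at 12.9 and 12.4 CPM in the control and 2.23 and 4.18 CPM in the PRMT5i libraries (-1.99 ± 0.27 before and -1.30 ± 0.22 after correction, adjusted p = 0.00017 and 0.0025). CALR, a chaperone of the peptide-loading complex, was at 489 and 462 CPM in the control and 134 and 161 CPM in the PRMT5i libraries (-1.69 ± 0.16 before and -0.97 ± 0.11 after correction, adjusted p = 8.2e-05 and 0.00033). No library of either group crossed over for the 3 genes. Both lists of this paragraph are to be read against all genes. Of these, 27.6% fell and 26.4% rose before correction, and 20% fell and 16.5% rose after it. Before correction 8 of 18 interferon-stimulated and nucleic acid sensing genes fell and 6 rose. Of 16 interferon-stimulated and nucleic acid sensing genes with a GC value 7 fell and 1 rose after correction, and 4 fell without control library 1. MX2, an antiviral GTPase, was at 13.02 and 16.1 CPM in the control and 5.43 and 6.03 CPM in the PRMT5i libraries (-1.35 ± 0.20 before and -1.18 ± 0.17 after correction, adjusted p = 0.00027 and 0.0012).

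Lineage, growth factor and matrix genes gave calls in both directions. Counts here and in the next paragraph are to be read against all genes. Before correction 26.4% of these were higher and 27.6% lower, and after it 16.5% and 20%. Before correction 6 of 15 melanocyte genes rose and 1 fell. Among 9 melanocyte genes with a GC value 4 rose and 1 fell after correction (1 and 1 without control library 1). PAX3, a melanocyte transcription factor, was at 124 and 140.3 CPM in the control and 244 and 238 CPM in the PRMT5i libraries (0.87 ± 0.16 before and 1.16 ± 0.12 after correction, adjusted p = 0.00064 and 0.00032). ERBB3, a neuregulin receptor expressed in melanoma, was at 308 and 282 CPM in the control and 80.98 and 92.2 CPM in the PRMT5i libraries (-1.77 ± 0.18 before and -1.18 ± 0.14 after correction, adjusted p = 8.3e-05 and 0.00046). TWIST1, a factor of mesenchymal states, was at 6.77 and 9.72 CPM in the control and 10.1 and 17.3 CPM in the PRMT5i libraries (0.73 ± 0.27 before and 1.71 ± 0.22 after correction, adjusted p = 0.036 and 0.00065). PAX3 and TWIST1 were higher and ERBB3 lower in both PRMT5i libraries, although the uncorrected call was lost for TWIST1 (uncorrected 0.49 without control library 1, 0.30 without PRMT5i library 2). IER3, an immediate early gene, was at 2.90 and 2.79 CPM in the control and 0.439 and 0.741 CPM in the PRMT5i libraries (-2.27 ± 0.30 before and -1.19 ± 0.25 after correction). PHLDA1, a MAPK-responsive gene, was at 37.3 and 40.8 CPM in the control and 126 and 141 CPM in the PRMT5i libraries (1.77 ± 0.27 before and 1.25 ± 0.24 after correction).

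IGFBP5 (chr2:217536828-217560272), a secreted binder of insulin-like growth factors, was at 1042 and 1311 CPM in the control and 243 and 310.4 CPM in the PRMT5i libraries (-2.09 ± 0.22 before and -1.60 ± 0.21 after correction, adjusted p = 8.3e-05 and 0.00068). COL11A1, a fibrillar collagen, was at 3502 and 3147 CPM in the control and 5796 and 6999 CPM in the PRMT5i libraries (0.94 ± 0.16 before and 0.95 ± 0.16 after correction, adjusted p = 0.00056 and 0.0023). COL4A5 of basement membranes was at 60.5 and 70.2 CPM in the control and 109 and 161 CPM in the PRMT5i libraries (1.05 ± 0.20 before and 1.42 ± 0.17 after correction, adjusted p = 0.00084 and 0.00044). COL6A1 was at 67.04 and 66.98 CPM in the control and 11.4 and 20.8 CPM in the PRMT5i libraries (-2.06 ± 0.24 before and -0.79 ± 0.11 after correction, adjusted p = 9.4e-05 and 0.00076). Of these 3 collagens the first 2 rose and the last fell, and of 12 collagens with a GC value 5 rose and 2 fell after correction (2 and 1 without control library 1). Before correction the list leaned the other way, with 3 of 15 collagens higher and 6 lower. The median of the 12 with a GC value was -0.56 before and 0.28 after correction. KRT10, a keratin of the epithelial marker list, was at 7.15 and 6.80 CPM in the control and 19.9 and 16.5 CPM in the PRMT5i libraries (1.38 ± 0.22 before and 1.92 ± 0.22 after correction, adjusted p = 0.00033 and 0.0004), and made up most of the epithelial list's summed level in all 4 libraries.

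Of 457 ZNF genes, whose transcripts are GC-poor (median 42.8%), 223 were higher and 80 lower before correction (median 0.52). Of 414 with a GC value 75 were higher and 45 lower after it (median 0.03), against 16.5% and 20% of all genes, and 26 and 16 without control library 1. ZNF540 was at 5.01 and 4.63 CPM in the control and 28.04 and 22.7 CPM in the PRMT5i libraries (2.40 ± 0.24 before and 1.38 ± 0.23 after correction, adjusted p = 8.2e-05 and 0.0019). Of the solute carriers 71 of 297 were higher and 110 lower before correction and 30 and 56 of 229 after it, near the shares of all genes (14 and 27 without control library 1). SLC50A1, a sugar transporter, was at 14.6 and 15.04 CPM in the control and 2.01 and 3.30 CPM in the PRMT5i libraries (-2.48 ± 0.24 before and -1.97 ± 0.19 after correction, adjusted p = 8.2e-05 and 0.00025). SLC27A6, a fatty acid transporter, was at 10.9 and 12.8 CPM in the control and 38.4 and 37.5 CPM in the PRMT5i libraries (1.68 ± 0.18 before and 1.27 ± 0.13 after correction, adjusted p = 8.3e-05 and 0.00026).

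The largest concordant falls, by corrected fold change, included myelin, iron and receptor genes beside the histone genes above. MOG (chr6:29624779-29640149), a myelin glycoprotein, was at 28.1 and 26.7 CPM in the control and 3.54 and 3.81 CPM in the PRMT5i libraries (-2.90 ± 0.24 before and -2.71 ± 0.22 after correction, adjusted p = 8.2e-05 and 0.00021). TF, transferrin, was at 44.3 and 36.9 CPM in the control and 12.3 and 9.50 CPM in the PRMT5i libraries (-1.90 ± 0.26 before and -2.57 ± 0.28 after correction, adjusted p = 0.00016 and 0.00035). TACR1, the substance P receptor, was at 8.65 and 9.88 CPM in the control and 1.54 and 1.45 CPM in the PRMT5i libraries (-2.63 ± 0.25 before and -2.48 ± 0.24 after correction, adjusted p = 8.2e-05 and 0.00025). All 3 were lower in both PRMT5i libraries than in either control. RNF224, at 20 and 12 counts in control and 0 and 1 in PRMT5i, was at least 5.29-fold lower against a floor of 3 counts per library, and its corrected call was lost in several fits (corrected -3.14 without control library 1, -2.94 without PRMT5i library 1, -6.93 without PRMT5i library 2). SLC38A4, an amino acid transporter, was at 0.830 and 1.31 CPM in the control and 0.220 and 0.438 CPM in the PRMT5i libraries (-1.70 ± 0.56 before and -2.72 ± 0.66 after correction), and its calls were lost as well (uncorrected -1.34 without control library 2, -1.28 without PRMT5i library 1 and corrected -2.34 without control library 2, -2.38 without PRMT5i library 1). The other 3 were AK7, an adenylate kinase (corrected -2.50 ± 0.36), C14orf64 (-2.43 ± 0.32) and C7orf49 (-2.41 ± 0.25). Their uncorrected values were -1.77, -2.28 and -1.18.

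The largest concordant rises were led by TBC1D28 (chr17:18537560-18547740), at 1.08 and 0.624 CPM in the control and 3.73 and 6.33 CPM in the PRMT5i libraries (2.55 ± 0.44 before and 3.39 ± 0.43 after correction, adjusted p = 0.00056 and 0.00064). PCBP1, a poly-C-binding RNA regulator, was at 5.23 and 3.91 CPM in the control and 14.99 and 19.9 CPM in the PRMT5i libraries (1.93 ± 0.32 before and 2.76 ± 0.32 after correction, adjusted p = 0.00043 and 0.00044). NAA38, a subunit of an N-terminal acetyltransferase, was at 34.8 and 29.6 CPM in the control and 79.7 and 94.8 CPM in the PRMT5i libraries (1.44 ± 0.19 before and 2.55 ± 0.18 after correction, adjusted p = 0.00015 and 0.00014). All 3 were higher in both PRMT5i libraries. The transcript assigned to NAA38 has 58.6% GC, in a decile of genes of which 0.85% were called higher before correction. GC values and positions were matched by gene symbol. A symbol that names another gene in the newer annotation would carry wrong ones, which was not tested. IRGM, an autophagy GTPase, was at 4.15 and 3.61 CPM in the control and 18.4 and 23.8 CPM in the PRMT5i libraries (2.44 ± 0.31 before and 2.70 ± 0.31 after correction, adjusted p = 0.00013 and 0.0004). LINC01031, a long non-coding RNA, was at 1.15 and 0.919 CPM in the control and 9.66 and 11.99 CPM in the PRMT5i libraries (3.38 ± 0.27 before and 2.64 ± 0.26 after correction, adjusted p = 8.2e-05 and 0.00025). The remaining 5 were LINC00639, LINC01003, FAM66A, SEPT7P9 and GAL3ST2, with corrected log2 fold changes of 2.83, 2.76, 2.72, 2.51 and 2.51. Their uncorrected values were smaller, at 2.23, 1.56, 1.31, 1.54 and 1.17, so their rank rests in part on the correction. Uncorrected calls were lost for FAM66A (uncorrected 1.00 without control library 2), SEPT7P9 (uncorrected 1.32 without control library 1, 1.07 without PRMT5i library 2) and GAL3ST2 (uncorrected 0.94 without control library 1, 0.63 without PRMT5i library 2). Genes that overlap others, such as PCBP1 with its antisense gene, and pseudogene copies such as SEPT7P9 are uncertain. HTSeq was run with default settings, which count by strand, while the kit is named only as TruSeq RNA, with no word on whether it keeps strand.

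**Figure D5:**
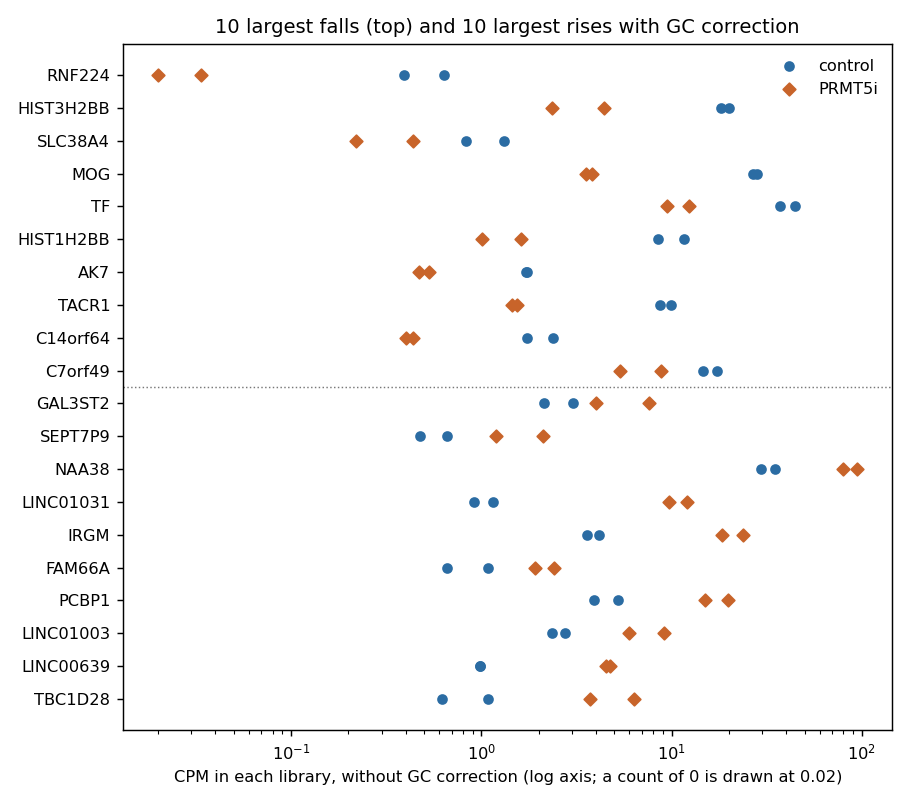
CPM (log axis, 0 drawn at 0.02) of the 10 genes with the largest concordant falls and the 10 with the largest concordant rises, one point per library for control and PRMT5i. In each of the 20 genes both PRMT5i libraries lie beyond both controls, which was a condition for picking them. TBC1D28, for example, is at 1.08 and 0.62 against 3.73 and 6.33 CPM.

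Against palbociclib at the same time in CHL1, 11958 of 20705 genes (57.8%) differed before correction and 6540 of 12875 (50.8%; 3032 higher and 3508 lower in PRMT5i, 23.5% and 27.2%) after it. This comparison has no control library in it. G2 and M phase genes were higher with PRMT5i than with palbociclib for 24 of 34 after correction and lower for none (25 and 2 before, medians 0.56 and 0.91). TTK differed by a corrected log2 value of 1.32 and NUF2 by 1.56. For homologous recombination genes 15 of 29 were higher and none lower. The 14 antigen presentation genes had 13 lower and none higher (median -1.17), and 54 of 75 ribosomal protein genes were lower and 1 higher (median -0.80). OXPHOS subunits were lower for 45 of 66 and higher for 5. Histone genes changed sides with the correction, from 31 of 69 lower and none higher (median -0.58) to 11 of 55 lower and 26 higher (median 0.39).

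The test of the difference between the cell lines, PRMT5i against control in CHL1 minus the same in A375, called 8466 of 20705 genes (40.9%) before and 3753 of 12875 (29.1%; 1734 up, 13.5%, and 2019 down, 15.7%) after correction. Library-set names in the labels differ between CHL1 and the 72-hour A375 samples, so cell line and library set cannot be told apart here. In A375 itself 1363 of 12875 genes (10.6%; 510 up, 3.96%, and 853 down, 6.63%) were DEGs after correction. p53 targets were higher in A375 for 19 of 22 and lower for none (median 1.03), and the change was lower in CHL1 for 18 of 22 by the test of the difference (median -1.15). BTG2 had a corrected log2 fold change of 2.34 in A375 and -1.35 in CHL1, a difference of -3.70 (adjusted p = 4.5e-05).

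Corrected counts of this paragraph are to be read against all genes. In A375 6.63% of these fell and 3.96% rose, and in the difference 15.7% were lower and 13.5% higher. Histone genes fell in both lines, for 40 of 55 in A375 after correction (median -0.98). The difference was lower in CHL1 for 10 of 55, a share near that of all genes. Before correction it was lower for 39 of 69, against 4581 of 20705 over all genes. G2 and M phase genes fell in A375 for 22 of 34 and rose for 1, and the difference was higher in CHL1 for 18 of 34 and lower for none. For homologous recombination genes the counts were 18 of 29 lower in A375 and 16 of 29 higher in the difference. Ribosomal protein genes were higher in A375 for 3 of 75, near the share of all genes, and lower for none (median 0.32). The difference was lower in CHL1 for 54 of 75. OXPHOS subunits differed in the same direction for 42 of 66, and glycolysis enzymes for 11 of 17. No glycolysis enzyme was a DEG in A375 by edgeR after correction.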

How the data were processed

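Per the labels, the authors checked reads with FastQC 0.11.6, aligned them to GRCh37/hg19 with HISAT2 2.0.4, handled alignments with Picard 2.17.3 and SAMtools 1.18, and deposited read counts per gene from HTSeq 0.11.2 after removing genes of low expression. The table's name speaks of normalised reads, but its values are whole numbers with unequal library totals and were taken as raw counts. The PRMT5i and control groups came from the labels. Members and gene lists were chosen with earlier results of these data known.

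The deposited counts of the 8 CHL1 libraries were fitted with edgeR 4.0.16 (R 4.3.3) by quasi-likelihood with TMM scaling and 1 mean per group, and p-values were Benjamini-Hochberg adjusted over all 20705 genes. For the GC correction, a loess curve (span 0.4) of log2 CPM (prior count 2) on GC of the longest transcript was fitted per library and entered as an offset, for 12875 genes averaging 1 CPM or more. Transcripts were GENCODE's on GRCh37, matched by symbol (15208 genes) or older symbol (1148). CHL1 and A375 were compared by an interaction over all 18 libraries. Scripts were tested on simulated data.

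Genes were named as the target and partners, the study's named genes, the 10 largest concordant rises and falls, and up to 3 concordant DEGs per direction in each list. A concordant DEG was called in the same direction in both fits and had both PRMT5i libraries beyond both controls. Not all genes of that rule are described. MTAP was not analysed here, and some genes and a part of the cell lines' genotype are not reported here. Alternatives were DESeq2 1.42.0, limma 3.58.1 voom, other scaling, filters, thresholds and GC measures, a replicate block, and leaving out each library. With 28823307 to 37424081 counts per library of this comparison, counting error was small beside the spread between replicates, and the 2 replicates per group limited precision.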

Additional observations from a re-analysis of the deposited data

Results flagged for a closer look

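The response to the PRMT5 inhibitor differed between CHL1 and A375 for 3753 genes after GC correction, by the test of the difference itself (edgeR, adjusted p below 0.05). Cell line and library set cannot be told apart in this test. For 11 named genes the corrected change was also called in each line, with opposite signs. Many named genes were picked as concordant DEGs of CHL1, so their call in CHL1 was given by that choice. The share of all genes with opposite calls was not determined. The 11 are therefore examples and no result about the groups they belong to. The CHL1 minus A375 log2 difference was negative for BTG2 (-3.70), FDXR (-1.68) and AEN (-1.29), which are p53 targets, for COL1A1 (-2.18), and for MXD4 (-1.26), a MAX partner. It was positive for the S and M phase genes POLE2 (1.38), NUF2 (1.47) and CDK1 (1.16), for FANCB (1.22) and BRCA2 (1.00) of DNA repair, and for PAX3 (1.71). The corrected CHL1 call of COL1A1 was lost without any 1 of the 4 libraries (-0.92 to -1.31). Those of FDXR, CDK1 and BRCA2 were lost without 3 of the libraries in turn, that of FANCB without 2, and those of AEN and MXD4 without control library 1. With GC averaged over transcripts the corrected CHL1 value turned for AEN (0.24) and POLE2 (-0.15), and the CHL1 calls of CDK1 and BRCA2 were lost.

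In data outside the comparison, the A375 libraries of DMSO for 6 days showed a level of GC-rich relative to GC-poor genes of -2.27 and -1.12 (log2), against 0.03 and 0.02 in the A375 controls of 72 hours. No comparison of this report uses these 2 libraries as a group. They do enter the estimate of the spread in the A375 fit and in the fit over all 18. They also enter the A375 median library against which the GC curves of the A375 libraries were taken. The cause of the trend was not tested.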

How the results depend on the processing

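The count of 11176 DEGs became 4692 with the GC correction and 6984 at a log2 change of at least 1, and lay between 8536 and 10783 without single libraries. DESeq2 (10607), limma voom (11356) and the likelihood ratio test (11785) stayed within 1.5 times of it. The corrected count of 4692 became 2466 at an adjusted p below 0.01 and 1005 at a log2 change of at least 1, lay between 2291 and 3757 without single libraries, and was 3885 (60.9% up) with only the 4 libraries fitted. With the GC correction the palbociclib comparison gave 6540 and the cell line comparison 3753 genes. Replicate numbers are shared labels only: deviations of same-numbered control and PRMT5i libraries correlated at 0.162, and those of other pairs of groups at -0.31 to 0.43. The replicate block gave 11151 DEGs, 4864 with the GC correction and 11889 for the palbociclib comparison.

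Signs turned with the GC correction for COPRS (0.24), E4F1 (0.28), MDM2 (-0.23), MDM4 (-0.12) and U2AF2 (0.0096). With GC averaged over all transcripts of a gene the corrected value turned for WDR77 (0.0011), RIOK1 (-0.21), E2F3 (-0.25), MRI1 (0.053), AEN (0.24) and POLE2 (-0.15). It turned for CDC45 (0.0077) with only the 4 libraries fitted and for U2AF2 (-0.017) with a loess span of 0.2. Leaving out single libraries gave ranges across 0 for CLNS1A (-0.11 to 0.15), RIOK1 (-0.19 to 0.17), COPRS (-0.21 to 0.53) and U2AF2 (-0.094 to 0.082). These genes had no corrected call, apart from MRI1, AEN and POLE2. Averaged GC also ended the corrected calls of APIP, LSM1, CDKN1B, CDK1 and BRCA2, and gave calls for PRMT5 (-0.62), E2F2, CDC45, CDC27 and E4F1. The cause was not tested.

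With 2 libraries per group the spread rests on few values, and genes without a GC value (12875 of 14500 genes at 1 CPM or more had one) have no corrected result. Estimated in each CHL1 group alone, the coefficient of variation between replicates was 0.193 in PRMT5i and 0.094 in control. It was 0.094 with palbociclib for 72 hours and 0.185 with palbociclib for 6 days. The tests used a spread pooled over these unequal groups.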
